A study of Mus musculus with 4 samples.

Results

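A stretch of chromosome 14 named after the gene Zfp503 held 60 of the 11224 TBX5 peaks listed for the mouse forelimb bud. The members are the listed peaks whose summit, the position of strongest signal in a peak, lay from 21.9 to 23.6 Mb. The stretch was picked because peaks are dense there, so its peak count and spacing are described below without a test. Forelimbs of wild-type outbred ICR embryos at embryonic day 10.5 were fixed with 1% formaldehyde, and chromatin was precipitated with a polyclonal antibody against TBX5 in 2 libraries, beside 2 input libraries made from the same kind of tissue. All 4 libraries come from whole forelimb buds, a mixture of cell types. The deposited list gives 1 set of peaks for the TBX5 group. Values of single libraries and of input were not analysed here, so no spread between replicates can be given and read depth is unknown.

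TBX5 is a T-box transcription factor that the forelimb bud needs to form. T-box proteins bind DNA through a short element with the core GGTGT, often in enhancers far from the genes they act on. Zfp503, also called Nolz1, encodes a zinc finger protein of the NET family, described as a transcriptional repressor and expressed in limb bud mesenchyme and in the developing nervous system. In the RefSeq gene table of GRCm38.p6, the protein-coding genes before it on the chromosome are Comtd1 and A430057M04Rik, and those after it are Lrmda and Kcnma1.

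The library names give the build as mm10 (GRCm38), but 69 summits of the list on 5 chromosomes lay beyond the last gene that the GRCm38.p6 table holds for that chromosome, 29 of them on chromosome 7. The region was defined on the reading that the list is on the earlier build mm9, with Zfp503 near 22.8 Mb. That reading was not tested against an mm9 genome. Peak positions are therefore printed as deposited, no peak was assigned to a gene, exon, intron or UTR, and no sequence under a peak is shown.

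The 250 bases before the start site of Zfp503 are shown as the reference promoter of the gene that names the region. They are from RefSeq on GRCm38.p6, chr14:21989602-21989851, minus strand, 5′ to 3′. These coordinates belong to another build than the one the region was defined on and must not be laid over the peak positions. Capitals mark the match to GGTGT.
Zfp503 promoter: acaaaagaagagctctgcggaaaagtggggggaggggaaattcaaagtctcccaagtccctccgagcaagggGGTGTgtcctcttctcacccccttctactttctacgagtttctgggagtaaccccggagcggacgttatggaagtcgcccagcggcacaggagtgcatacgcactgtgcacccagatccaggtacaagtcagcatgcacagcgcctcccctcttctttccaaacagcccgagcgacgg
Both strands were searched for GGTGT and for the longer GGTGTGA, which contains it. GGTGT matched 1 time, 178 bases before the start site on the strand of the gene, and GGTGTGA matched 0 times. Among 32851 RefSeq promoter windows of the same length, 36.2% held GGTGT and 3.33% held GGTGTGA, so the short match is common. Whether a TBX5 peak lies on this promoter was not tested.

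The region was crowded with peaks. It held 35.3 peaks per Mb, against 4.81 per Mb over the rest of chromosome 14, a ratio of 7.33. Its 60 peaks made up 9.93% of the 604 peaks on chromosome 14 in 1.48% of the span that these cover. Where the intervals of several rows overlapped or touched they were joined, which left 53 separate sites covering 20479 bp, or 1.20% of the region.

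The edges of the region differed. To the left, the nearest peak outside had its summit at 21522255, with a signal value of 14.2, and lay 384.0 kb from the first member at 21906227, with a signal value of 45.1. To the right, the last member at 23565611 (signal 22.6) lay 71.5 kb from the next peak outside, at 23637110 (signal 34.8). The stretch of equal length on the left held 6 peaks with a median signal of 21.3, and the one on the right held 28 with a median of 28.8. On the right, 6 of the 28 were in the top decile of the list by signal, which holds 10% of all peaks. The highest signal there was 209.7, above the 155.9 of the strongest member. On the left, 0 peaks were in the top decile and the highest signal was 46.3. Peaks were thus sparse beyond the left bound and more numerous beyond the right one, where strong peaks also occurred.

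**Figure D1:**
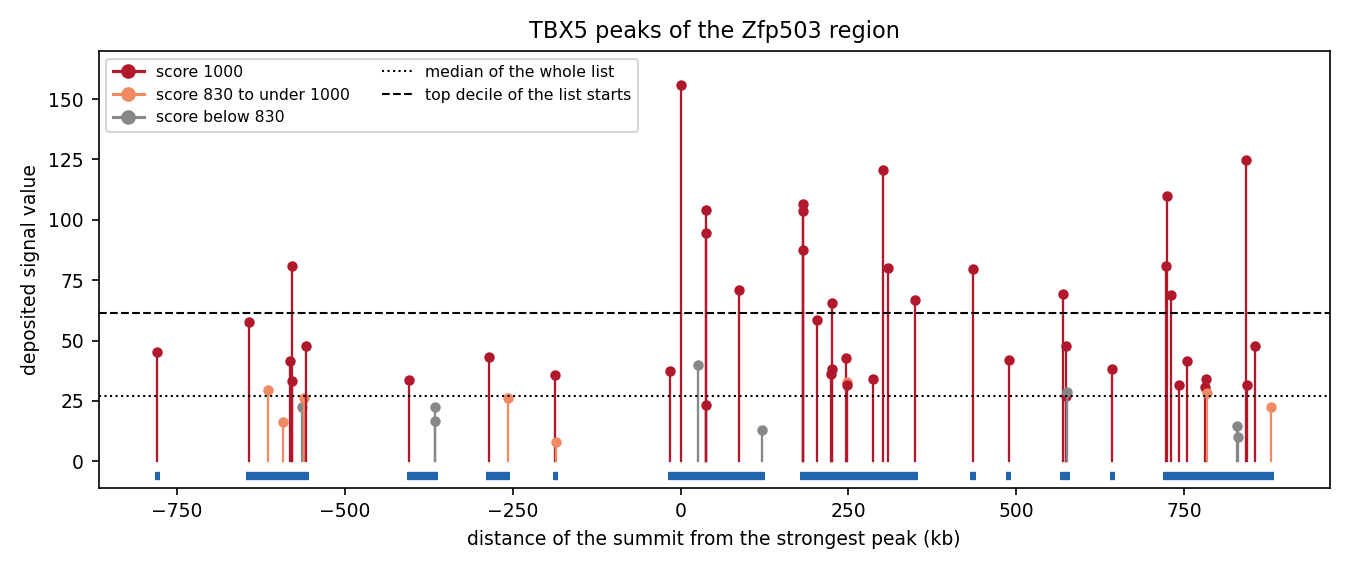
Deposited signal value of each of the 60 peaks (vertical axis) against the distance of its summit from the strongest peak in kb (horizontal axis); colour gives the IDR score, lines mark the list median of 27.2 and the start of the top decile at 61.3, and bars at the foot mark the 12 groups of peaks. Tall peaks with a score of 1000 stand mostly from the strongest peak rightward.

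The signal value is the strength that the authors' peak caller gave each peak, on a scale that is not stated, and it was not used to choose the region. In the region its median was 39.05, its quartiles were 29.2 and 68.9, and its extremes 8.12 and 155.9. Over the whole list the median was 27.2 (quartiles 20.3 and 39.96), and over the rest of chromosome 14 it was 26.1. The median member thus lay close to the upper quartile of the list. Of the 60 members, 48 (80%) lay above the list median, which 50% of all peaks exceed. In the top decile of the list by signal, which starts at 61.3 and holds 10% of all peaks, there were 18 members (30%), against 8.27% of the peaks on the rest of chromosome 14. The weakest member in the top decile had a signal of 65.5 and the next below it 58.5. Peaks are not replicates of the experiment, so these shares describe the list and carry no test.

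Reproducibility was high among the members. The irreproducible discovery rate (IDR) compares how the peaks rank in the 2 replicates and is low for a peak that ranks consistently high in both. The list gives it as a score whose highest value, 1000, stands for an IDR of 0.00391 or lower. The score reached 1000 in 44 members (73.3%), against 45.4% of the whole list. The stricter limit of IDR 0.01 (score 830 or higher) was met by 52 members (86.7%), against 60% of the list. The lowest score in the region was 654, while the list goes down to 540. The 44 members with a score of 1000 had a median signal of 47.6, and the 16 others had a median of 22.6 and a highest value of 39.9. Signal and score were thus high in the same peaks, with a Spearman's rho of 0.692 across the 60 peaks, which come from the same libraries, and of 0.797 across the list.

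**Figure D2:**
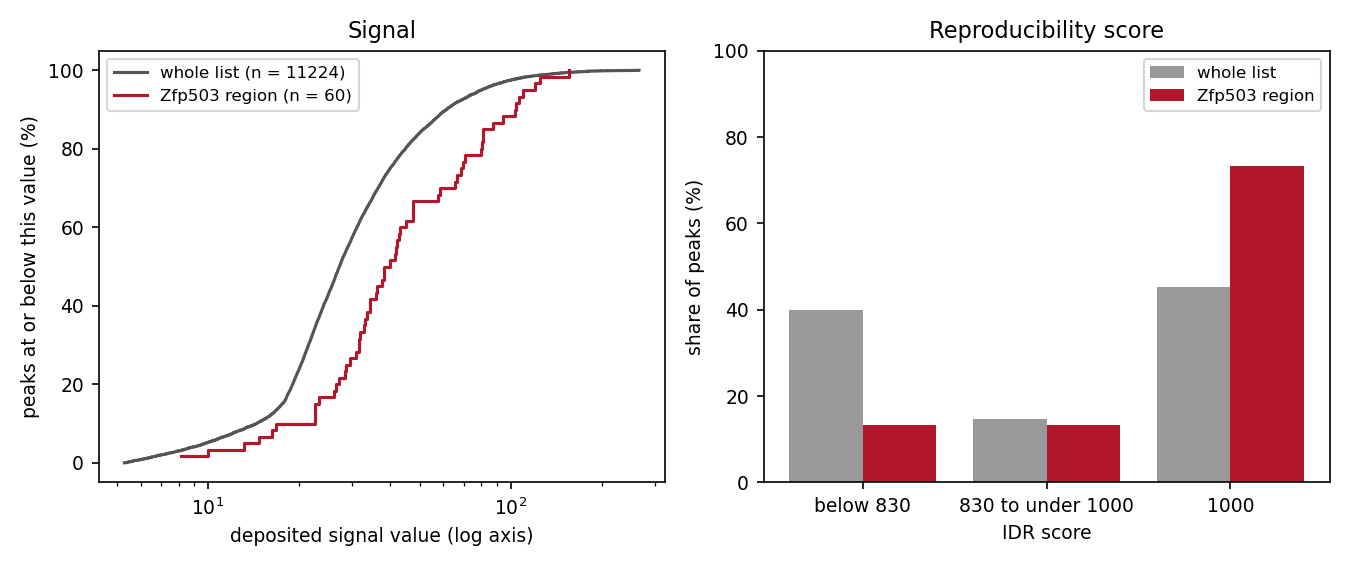
Left, cumulative share of peaks (%) against the deposited signal value on a log axis for the region (60 peaks) and the whole list (11224 peaks); right, share of peaks (%) with an IDR score below 830, of 830 to under 1000 and of 1000. The curve of the region lies to the right of the list over most of its range, and 73.3% of its peaks against 45.4% of the list have a score of 1000.

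The strongest member had its summit at 22685791 (interval 22685494 to 22686052) and a signal of 155.9, which is 5.74 times the list median and rank 59 of the list. The second (23527504 to 23527853) had a signal of 124.9. The third (22987388 to 22987681) had 120.6. These 3 lay in 3 different groups of peaks. The fourth (23410497 to 23410780) had 109.8. The fifth and the seventh were listed with the same interval, 22867892 to 22868455, with summits at 22868225 and 22868015 and signals of 106.7 and 103.7. The sixth (22723589 to 22723925, signal 103.97) and the eighth (22723066 to 22723405, signal 94.5) lay side by side. The ninth, just left of the fifth and seventh, lay at 22867547 to 22867880 with a signal of 87.4. Of the 10 strongest, the last, at 22107043 to 22107251 with 81.05, was the only one left of the strongest member. All 10 had a score of 1000, as did 100% of the top decile of the whole list, so this score does not set them apart.

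Signal differed between members of the most common width and the others. The width of 416 bp, which 84.3% of all listed peaks share, was found in 38 members (63.3%), with signals from 8.12 to 47.7. The 22 members of another width, 104 to 564 bp, were mostly narrower, with 350 bp for the second strongest and 294 bp for the third. Wider than 416 bp were only the strongest member, at 559 bp, and the rows that share an interval, at 564 bp. The 22 members had a median signal of 80.5, and all had a score of 1000. That score was found in 45.4% of the list, and it was also the median score of listed peaks of another width. Of the 22 members, 2 had a signal no higher than the strongest member of the common width. All 18 members in the top decile of signal had another width than 416 bp, as did 95.8% of the top decile of the whole list.

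Summits were unevenly spaced. Between the 60 summits there were 59 gaps, with a median of 11.96 kb and a mean of 28.1 kb. Of these gaps, 8 were at most 500 bp, 9 were over 500 and up to 2000 bp, 7 up to 10000 bp, 24 up to 50000 bp and 11 were longer. The longest, 170.8 kb, separated the summits at 22499543 and 22670338, just left of the strongest member. The next were 154.1 kb, between 22127752 and 22281828, and 136.6 kb, between the first and second members. Another summit lay within 10000 bp of 38 members (63.3%), against 42.7% of the list, and within 50000 bp of 56 members (93.3%), against 66.8%. A higher share is built into a dense region.

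Splitting the summits at gaps of over 50000 bp gave 12 groups. The 4 groups of 8 or more peaks held 45 of the 60 members on 546.4 kb, 32.1% of the region, and 16 of the 18 members in the top decile of signal. The other 8 groups held 15 peaks, and 4 of them were single peaks.

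The first large group, 9 peaks from 22042867 to 22127752, had a median signal of 33.1 and its strongest summit at 22107146 (81.05). The second, 8 peaks from 22670338 to 22807681, held the strongest member and had a median of 55.3. The third, 14 peaks from 22867707 to 23035149, had the highest median of the 4 at 62.04 and its strongest summit at 22987554 (120.6). Its score was 1000 in 13 of 14 peaks, against 73.3% of all members and 45.4% of the list. This was also the only large group in which no peak fell below the list median, its weakest having a signal of 31.6. The fourth, 14 peaks from 23408879 to 23565611, had a median of 33.0 but ran from 9.99 to 124.9, its strongest summit lying at 23527672. Strong and weak peaks were thus mixed within 3 of the 4 large groups.

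Among the small groups, the strongest summits were at 22281828 (33.5), 22400590 (42.98), 22499272 (35.9) and 23255276 (69.4). The 4 single peaks lay at 21906227 (45.1), 23121287 (79.6), 23174437 (42.04) and 23329281 (38.2). Each of the 4 single peaks had a score of 1000 and a signal above the list median. Of all members, 73.3% had that score and 80% such a signal, against 45.4% and 50% of the list.

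**Figure D3:**
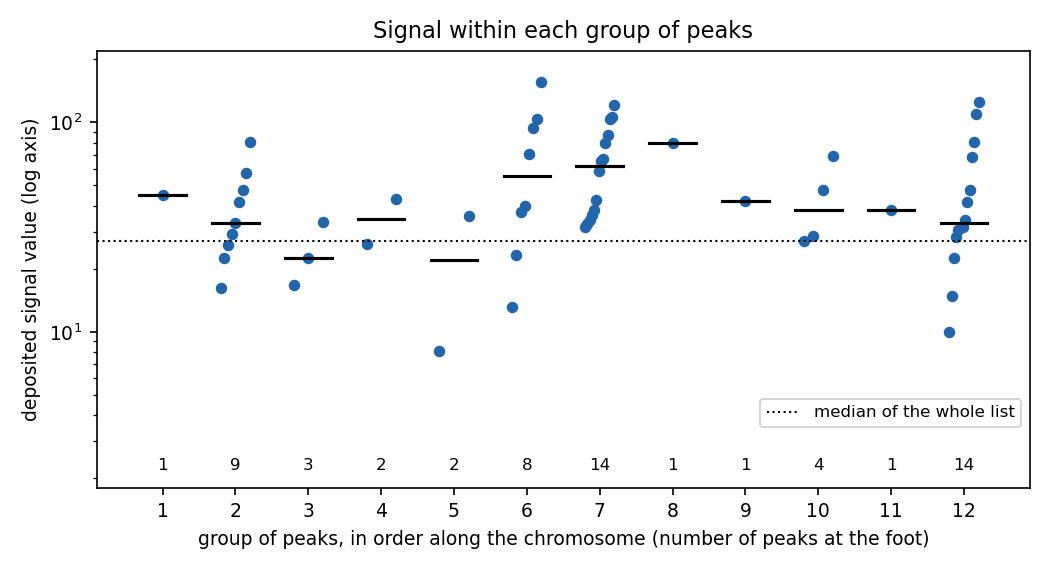
Deposited signal value on a log axis for each peak (points) in the 12 groups, in order along the chromosome, with the group median as a black bar, the number of peaks at the foot and the list median of 27.2 as a dotted line. The medians of groups 6 and 7 are 55.3 and 62.04, and those of groups 3 and 5 lie below the list median.

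Counted in steps of 100 kb, the peaks were most numerous from 22.9 to 23 Mb (9 peaks) and from 23.4 to 23.5 Mb (8 peaks), and none lay from 22.5 to 22.6 Mb. The 3 steps from 22.7 to 23 Mb held 9 of the 18 members in the top decile of signal. Around the approximate position of Zfp503, from 22.75 to 22.85 Mb, there were 2 members. One, at 22772143, had a signal of 70.8 and a score of 1000, and the other, at 22807681, had a signal of 13.1 and a score of 658. To the left of that interval, 0.85 Mb held 23 peaks (27.1 per Mb), and to the right 0.75 Mb held 35 (46.7 per Mb). The score was 1000 in 14 of the 23 (60.9%) and in 29 of the 35 (82.9%), and the median signals were 35.9 and 42.04. The right side was thus denser and held 13 of the members in the top decile, against 4 on the left, with the gene position taken from the region's definition and not from an annotation.

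Some members were close doublets. In 8 pairs of neighbouring summits, which involved 15 members, the distance was 201 to 308 bp, and in 7 of the 8 the listed intervals overlapped. The share of members with a summit within 500 bp, 25%, was near the 20.1% of the list. The weaker summit of a pair had 0.224 to 0.972 times the signal of the stronger. The most equal pair was the one with a shared interval (22867892 to 22868455). The least equal had its stronger summit at 22723758, where summits 205 bp apart had signals of 103.97 and 23.3. A list of peaks does not show whether such a pair is 1 bound site or more.

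To compare the region with other dense places on equal terms, windows of the same length, 1.7 Mb, were placed on every chromosome wherever they held most peaks, without sharing peaks. Of these, 43 held at least 30 peaks. The best placement over the Zfp503 region, from 22670338 to 24361441, held 66 peaks, 43 of them members, and was the third most populated. The windows ahead of it were on chromosome 2 (78 peaks) and chromosome 18 (74 peaks). With windows of 1 Mb, the size at which the region was picked, it ranked 4 with 44 peaks, of which 38.6% were in the top decile of signal. The window of 1 Mb just ahead, on chromosome 8, held 46 peaks, with 26.1% in the top decile. A window of 1 Mb on chromosome 9 with 34 peaks had a similar share, 38.2%, and a higher median signal (45.1 against 41.8). Of the windows of 1.7 Mb, the one on chromosome 14 had 34.8% of its peaks in the top decile of signal, against 12.8% in the chromosome 2 window and 12.2% in the chromosome 18 window, and the median signals were 39.2, 30.5 and 33.3.

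Over the 42 other windows, the share in the top decile had a median of 13.7% and ran from 5.71% to 36.8%, and only 1, a window of 38 peaks on chromosome 9, had a share as high as that of the chromosome 14 window. By median signal, 2 of the 42 were at or above it, and by the share of peaks with a score of 1000 (74.2%), 1 was. These ranks describe the windows of the list, and no test was made of them. They belong to the chromosome 14 window, which holds 43 of the 60 members. In the region as defined, 30% of the peaks were in the top decile and the median signal was 39.05.

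**Figure D4:**
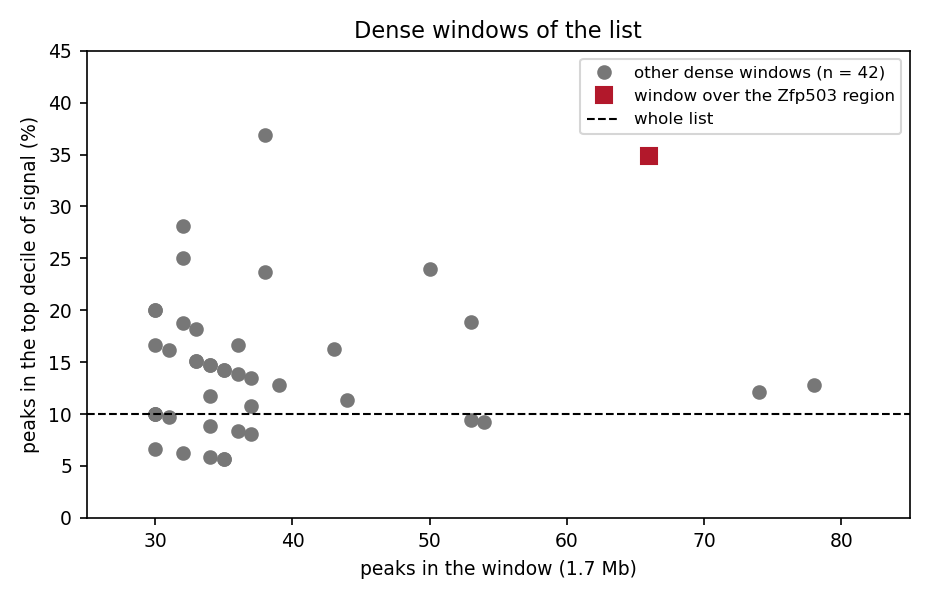
Share of peaks in the top decile of signal (%) against the number of peaks for the 43 windows of 1.7 Mb with at least 30 peaks; the square is the window over the Zfp503 region (66 peaks, 34.8%), circles are the 42 others and the dashed line is the 10% of the whole list. The 2 windows with more peaks, on chromosomes 2 and 18, lie near 12%.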

How the data were processed

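TBX5 ChIP-seq was made from forelimbs in 2 libraries with 2 inputs, grouped by their titles, and sequenced as single-end reads of 75 bp, per the labels' protocols. The submitters' processing notes name FastQC and the build mm10. The aligner, the peak caller and any filter are not given in the sources used here. The authors deposited 1 peak list without a header in the 10-column narrowPeak layout. The deposited signal value is the peak caller's strength on an unstated scale, the deposited score is the scaled IDR (125 times the negative log2 of the IDR, cut to whole numbers and capped at 1000), and significance is deposited as a −log10 q-value. The p-value column holds -1 throughout. Those unstated steps decide what was listed as a peak and at what strength.

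Positions were converted to 1-based. Counts, medians, gaps and groups were computed in Python 3.11.15 with NumPy 2.4.6, pandas 2.3.3 and SciPy 1.17.1, and figures with matplotlib 3.10.9. The functions that pick the region, find neighbours, split groups and join rows were tested on simulated data. The placement of windows and the density ratio were not tested in this way. No statistical test was run. The region and its settings were chosen with earlier results of these data known. Peaks named are the 10 strongest, the strongest of each group, those at the region's edges and rows with the same interval; others were chosen after their values were seen.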

Additional observations from a re-analysis of the deposited data

How the results depend on the processing

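Of 22 alternative values, 16 stayed within 1.5 times the count or within the 95% binomial interval of the value reported. Of the 22, 4 were added with the data in view. The interval treats peaks of the same list as independent draws, which they are not, and serves only as a limit for the size of a change. The alternatives reuse the same peaks, so the tally does not measure how well the results would repeat. The number of members was 52 to 60 under the 5 alternatives tried. The density relative to the rest of chromosome 14 rose from 7.33 to 11.03 among peaks with an IDR of 0.01 or below, since 86.7% of members but 57.4% of the other peaks on the chromosome meet that limit. A score of 1000 in place of at least 830 lowered the share of members that met it to 73.3%. The share with another summit nearby was 48.3% at 2000 bp and 93.3% at 50000 bp, against 28.9% and 66.8% of the list. The number of groups was 27 when gaps of over 20000 bp split them and 4 at 100000 bp, so the 12 groups are a description at 1 distance. The median signal stayed above that of the list in each of the 3 alternatives tried. It was 41.6 against 28.7 without rows that had a stronger summit within 500 bp, and 41.7 against 28.7 with overlapping or touching rows joined. Among peaks with an IDR of 0.01 or below it was 42.4 against 36.3, a smaller difference than the 39.05 against 27.2 of all peaks.

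No paired analysis was possible because the peaks carry no value per replicate, and leaving out a replicate was not possible either. Read depth, input signal and the sequence under the peaks were not analysed here, so sites missed for lack of reads cannot be counted.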

Other observations

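These members were chosen after their values were seen and are given as values. The peak with its summit at 22711366 had a signal of 39.9 and a score of 654, an IDR of 0.0266. Of the 2820 peaks of the list at least as strong, 4 had a score that low, this one included. The weakest member, at 22499543 with a signal of 8.12 and a q-value of 0.312, had a score of 997 and lay 271 bp from a summit with a signal of 35.9. The only other member with a q-value above 0.05 was at 23515715, with a signal of 9.99, a q-value of 0.0947 and a score of 721, 237 bp from a summit with a signal of 14.8 and the same score.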
